A study of Mus musculus with 8 samples.

Results

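The guanylate-binding protein genes Gbp2, Gbp3, Gbp4, Gbp5, Gbp6, Gbp7, Gbp9 and Gbp10 were followed in mouse cerebellum. These 8 genes, of 17700 listed, were chosen by name and with their levels in old and young mice already known, so their values by age are a description and carry no test. Sex, the interaction of age with sex, and the spread between mice of one age played no part in that choice. All 8 had enough counts to enter the fit over 14191 genes.

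Guanylate-binding proteins are large, dynamin-related GTPases that interferons induce, interferon gamma most strongly, through transcription factors such as IRF1. In infected mouse cells they gather on bacteria in the cytosol and on the vacuoles of Toxoplasma gondii. Loading onto these vacuoles depends on immunity-related GTPases and on the proteins that attach Atg8 to membranes. Guanylate-binding proteins also promote inflammasome caspases. In the brain they are known from interferon-exposed microglia, endothelium and astrocytes, and Gbp2 is widely used as a marker of reactive astrocytes.

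The old group held 4 C57BL/6JN mice, a male of 93 weeks (old 1), a female of 83 weeks (old 2), a male of 83 weeks (old 3) and a female of 102 weeks (old 4). The young group held 4 mice of the same strain, males of 19 weeks (young 1 and young 2), a female of 19 weeks (young 3) and a female of 22 weeks (young 4). No allele, agent or other treatment is labelled for either group. The series' design text names liver and other ages, so the labels of the single samples were followed for tissue, age and sex. The design text calls the samples biological replicates. Total RNA depleted of ribosomal RNA was sequenced, and each gene's reads were counted.

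Totals were 6079485 to 7236720 counts per library, where 3 counts of a gene correspond to 0.421 to 0.511 CPM. CPM here means counts scaled to a common library total after TMM normalization, which corrects for differences in RNA composition. Cerebellar transcripts were abundant in all 8 libraries. Gabra6 of granule neurons averaged 478 ± 79.0 CPM in old and 543 ± 156 CPM in young mice, and Pcp2 of Purkinje cells 166.9 ± 27.8 CPM in old and 148.5 ± 9.47 CPM in young mice (SD, n = 4 each). The sum of 7 liver genes was above 20 CPM in 3 libraries, old 2 (84.2 CPM), old 3 (23.6 CPM) and young 4 (21.2 CPM), and at most 9.63 CPM elsewhere. These bulk libraries measure the whole tissue, so more cells of a type and more RNA per cell cannot be told apart.

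In GRCm38 with the GENCODE M21 annotation, 4 of the genes lie on the forward strand of chromosome 3, in the order Gbp5 (142493978 to 142522344), Gbp7 (142530342 to 142550149), Gbp3 (142560026 to 142573209) and Gbp2 (142620602 to 142638008). The other 4 lie on the reverse strand of chromosome 5, Gbp9 at 105077630 to 105139539, Gbp4 at 105115767 to 105139586, Gbp10 at 105215699 to 105239533 and Gbp6 at 105270702 to 105293698. All are protein-coding gene spans, and the counts cover the exons of each gene as a unit.

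**Figure D1:**
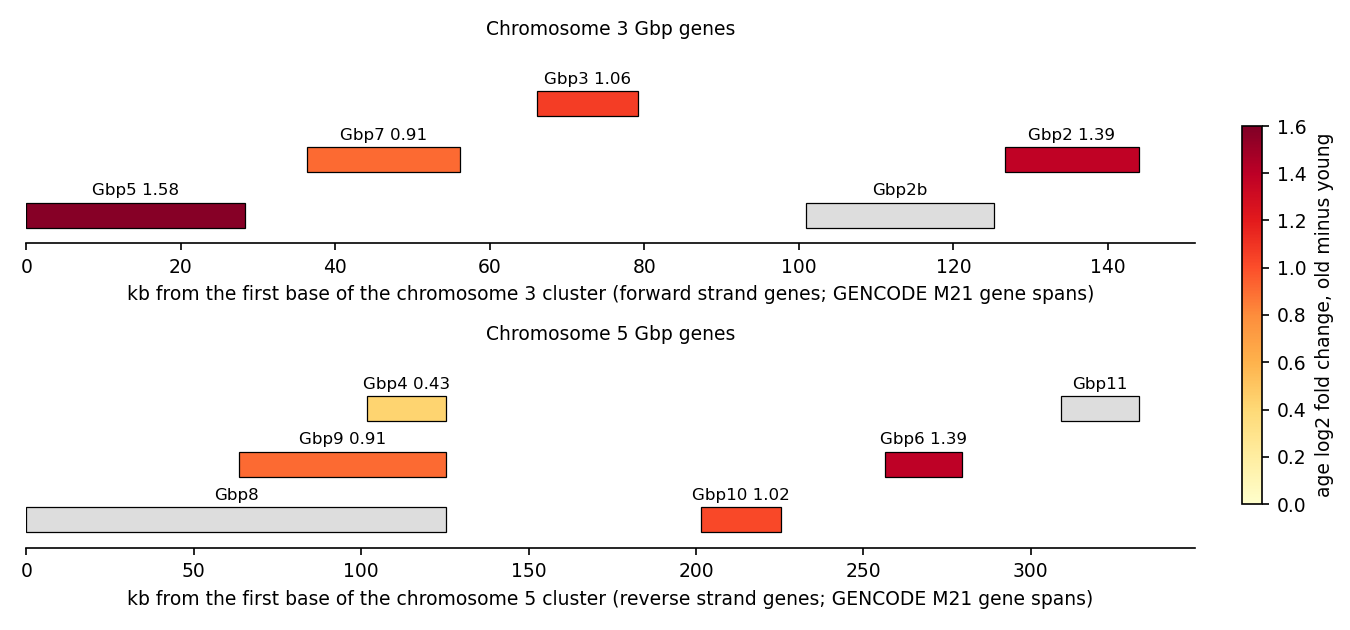
Gene spans of the Gbp clusters on chromosome 3 (top) and chromosome 5 (bottom), as kb from the first base of each cluster, stacked only to keep names apart. Colour and the number beside each name give the log2 fold change of old over young mice, from 0.43 for Gbp4 to 1.58 for Gbp5, and grey genes were not tested or not analysed here.

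RefSeq promoter windows of GRCm38.p6, from 250 bases before to 50 bases after the start, were matched by symbol for 4 of the 8 genes, all of them on chromosome 3. They are shown because interferon is known to induce the family through elements in its promoters. Windows were searched on both strands for the core of the interferon-stimulated response element, GAAANNGAA, and for the gamma-activated site, TTCNNNGAA, and matches are in capitals. Where the first element lies on the other strand, it reads as its reverse complement.
Gbp5, chr3:142496684-142496983, forward strand: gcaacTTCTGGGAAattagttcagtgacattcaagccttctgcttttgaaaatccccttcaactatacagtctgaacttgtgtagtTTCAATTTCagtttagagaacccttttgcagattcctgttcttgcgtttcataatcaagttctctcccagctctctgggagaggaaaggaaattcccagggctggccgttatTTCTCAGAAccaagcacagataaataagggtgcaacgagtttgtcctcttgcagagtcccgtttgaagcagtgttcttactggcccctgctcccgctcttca
Gbp7, chr3:142530086-142530385, forward strand: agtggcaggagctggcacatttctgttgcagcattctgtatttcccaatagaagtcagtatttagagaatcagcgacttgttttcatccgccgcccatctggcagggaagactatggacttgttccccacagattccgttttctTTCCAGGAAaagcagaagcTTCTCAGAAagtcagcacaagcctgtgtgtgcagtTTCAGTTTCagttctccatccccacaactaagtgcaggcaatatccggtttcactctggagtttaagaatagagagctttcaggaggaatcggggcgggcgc
Gbp3, chr3:142559794-142560093, forward strand: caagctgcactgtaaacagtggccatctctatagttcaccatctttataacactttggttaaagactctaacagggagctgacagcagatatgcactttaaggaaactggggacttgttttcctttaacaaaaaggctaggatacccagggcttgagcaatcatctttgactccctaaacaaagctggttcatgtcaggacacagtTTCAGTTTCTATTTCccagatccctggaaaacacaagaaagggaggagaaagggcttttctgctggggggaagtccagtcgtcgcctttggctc
Gbp2, chr3:142620413-142620712, forward strand: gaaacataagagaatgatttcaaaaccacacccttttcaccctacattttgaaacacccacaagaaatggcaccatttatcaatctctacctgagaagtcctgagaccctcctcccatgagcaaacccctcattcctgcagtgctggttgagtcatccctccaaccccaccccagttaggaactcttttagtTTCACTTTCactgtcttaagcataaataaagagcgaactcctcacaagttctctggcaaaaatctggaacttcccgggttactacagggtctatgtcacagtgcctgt
Each of these windows held the response element core, which begins at -164 from the start in Gbp5, -52 in Gbp7 and -58 in Gbp2, and at -44 and -38 in Gbp3, where the 2 matches overlap by 3 bases. Of all 32851 RefSeq windows of this length, 8.56% held it. Gbp5 and Gbp7 also held 2 gamma-activated sites each, and Gbp3 and Gbp2 none in these windows, while 8.3% of all windows held one and 1.07% held both elements. A second listed start of Gbp3, 142560106 to 142560405, had no match. These are letter matches, and no binding was measured.

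The coding ends are shown because the proteins differ there in a signal for membrane attachment. In Gbp2 and Gbp5, and in no other of the 8, the codon that lies 4 residues from the end of the protein is cysteine, the position at which prenyl lipids are attached to proteins with such ends. The last 30 coding bases, stop codon included, are given for these genes with that cysteine codon in capitals, and for Gbp6 and Gbp10, whose ends are identical.
Gbp2, chromosome 3: aaatcgtctgggaagTGCactatactctga
Gbp5, chromosome 3: agacatcatcatgacTGTgttataagctaa
Gbp6, chromosome 5: taccttgtccgttatctaaagcatttatga
Gbp10, chromosome 5: taccttgtccgttatctaaagcatttatga
The coding sequences run from 589 codons in Gbp2 to 638 in Gbp7. Each of the 8 encodes the phosphate-binding loop of GTPases, found as glycine, any 4 residues, glycine, lysine and then serine or threonine. Gbp6 and Gbp10 are 98.4% identical over the aligned coding bases, and the other pairs on chromosome 5 are 90.2% to 90.9% identical. On chromosome 3 the closest pairs were Gbp3 with Gbp7 at 78.5% and Gbp2 with Gbp5 at 69.7%.

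That likeness bears on the counts, since the treatment of reads that map to several places is not given in the sources used here. Of all 100-base stretches in the exons of Gbp10, 73.5% also occur in another gene, and of those of Gbp6 64.5%. For both, the gene holding the most of these stretches is an annotated read-through gene that overlaps them. The share was 10% for Gbp7 and at most 1.65% for the other 5 genes. Of 50-base stretches, 84.1% were shared for Gbp10, most of all with Gbp6, 70.7% for Gbp6 and 12.7% for Gbp7. In the other 5 genes that share ran from 1.44% for Gbp5 to 8.05% for Gbp9. Gbp6 and Gbp10 share 29% and 46.3% of their exon bases with that read-through gene on the same strand. Part of their shared stretches is thus the same bases annotated more than once, and reads may be divided among these genes. The separate values of Gbp6 and Gbp10 are therefore uncertain as to which copy they come from.

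In old cerebellum all 8 genes had higher mean levels than in young cerebellum, with log2 fold changes from 0.43 to 1.58 and a median of 1.04, against a median of -0.0056 over all 14191 genes. For 5 of the 8 (Gbp2, Gbp3, Gbp5, Gbp6 and Gbp7) each old mouse lay above each young mouse, a pattern that 3.15% of all genes tested showed. Gbp5 alone passed an adjusted p of 0.05 in the fit, which called 0.0987% of all genes as higher in old mice and 0.12% in either direction. Gbp10 is among the 8 although it passed the filter on low counts through 2 old libraries alone. Because the genes were chosen with these values known, nothing is read from these counts. The call for Gbp5 was not kept by limma-voom, without a term for sex, or without old 1, old 4 or any single young library. Over all alternatives in which it was tested, its log2 fold change lay between 1.45 and 1.77.

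**Figure D2:**
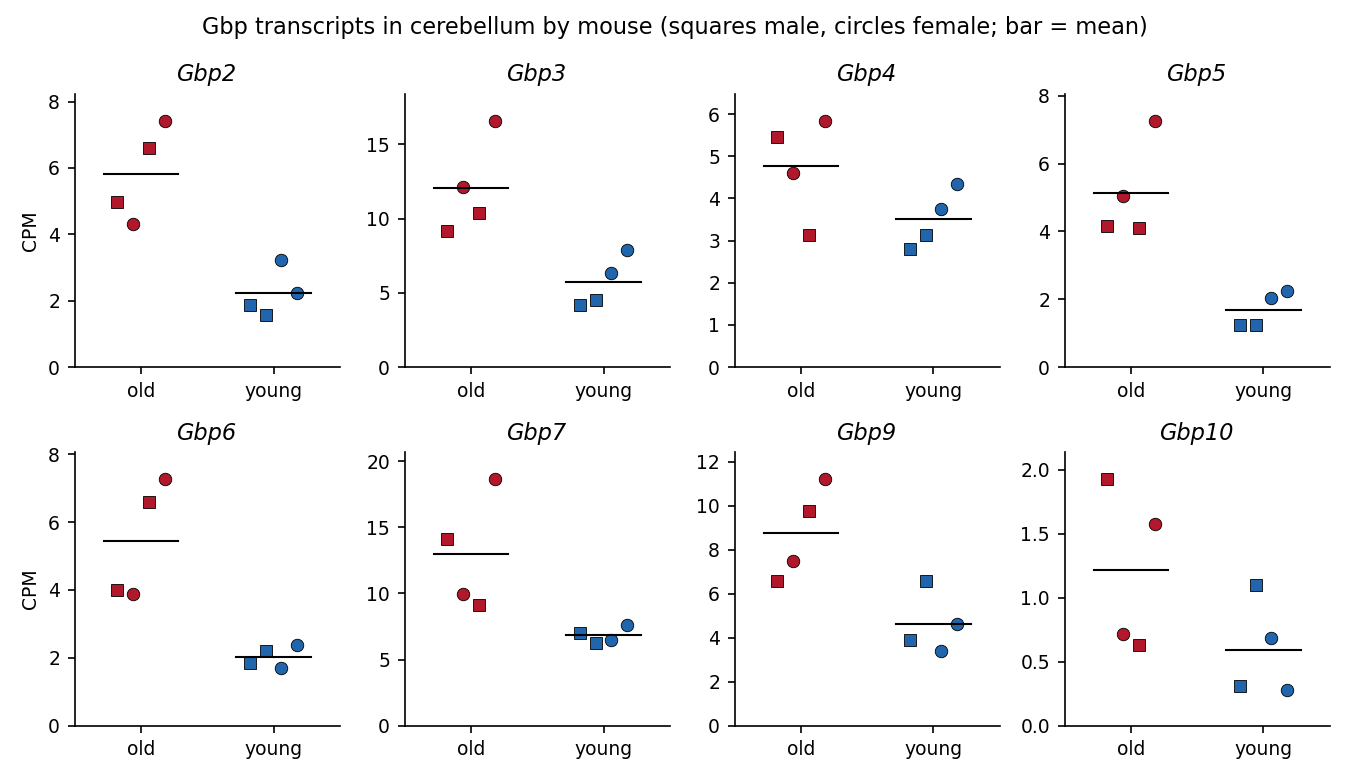
Level of each gene in CPM (vertical axis, from 0) in the 4 old mice (red, left) and the 4 young mice (blue, right), 1 point per mouse, with squares for males, circles for females and a bar at the group mean. Old and young points do not overlap for Gbp2, Gbp3, Gbp5, Gbp6 and Gbp7, while for Gbp4, Gbp9 and Gbp10 they do.

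Among the prenylated type, Gbp5, which promotes assembly of the NLRP3 inflammasome in mouse macrophages, had the largest fold. Its levels were 4.17, 5.04, 4.09 and 7.26 CPM in old 1 to old 4, against 1.24, 1.25, 2.05 and 2.25 CPM in young 1 to young 4. The lowest old mouse was well above the highest young one. Means were 5.14 ± 1.48 CPM in old and 1.70 ± 0.525 CPM in young mice (SD, n = 4 each), a log2 fold change of 1.58 ± 0.26 (SE) resting on 133 counts in old and 44 in young libraries.

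Gbp2, which restricts Toxoplasma gondii in mice, stood at 4.97, 4.32, 6.60 and 7.42 CPM in old 1 to old 4, against 1.86, 1.57, 3.24 and 2.25 CPM in young 1 to young 4. Old 2 was the lowest of its group and young 3 the highest of the young mice, with no overlap. The means of 5.83 ± 1.43 CPM in old and 2.23 ± 0.728 CPM in young mice (SD, n = 4 each) gave a log2 fold change of 1.39 ± 0.29 (SE). Beside it, the astroglial filament gene Gfap had 392 ± 146 CPM in old and 234.9 ± 58.4 CPM in young mice (SD, n = 4 each), a log2 fold change of 0.71 ± 0.29 (SE) that missed the threshold of edgeR's quasi-likelihood test, adjusted by Benjamini-Hochberg (adjusted p = 0.436). Gfap is not typical of the 10 astroglia markers followed below, of which 2 were positive with age, the median log2 fold change being -0.09.

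Gbp3 and Gbp7, the most alike pair of chromosome 3, had the highest counts of the family. Gbp3, found at Toxoplasma vacuoles in mouse cells, was at 9.15, 12.1, 10.4 and 16.6 CPM in old 1 to old 4, against 4.19, 4.55, 6.31 and 7.86 CPM in young 1 to young 4. Within each age both females exceeded both males. The log2 fold change was 1.06 ± 0.18 (SE), from means of 12.05 ± 3.25 CPM in old and 5.72 ± 1.70 CPM in young mice (SD, n = 4 each).

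Gbp7, linked to the phagocyte oxidase and autophagy in mouse macrophages, was at 14.1, 9.93, 9.12 and 18.6 CPM in old 1 to old 4, against 6.98, 6.27, 6.48 and 7.58 CPM in young 1 to young 4. The young mice lay close together, while the old mice were spread widely between old 3 and old 4. Means of 12.95 ± 4.37 CPM in old and 6.83 ± 0.582 CPM in young mice (SD, n = 4 each) gave a log2 fold change of 0.91 ± 0.23 (SE).

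On chromosome 5, Gbp6, another protein of Toxoplasma vacuoles in mouse cells, was at 4.01, 3.89, 6.60 and 7.26 CPM in old 1 to old 4, against 1.86, 2.195, 1.70 and 2.39 CPM in young 1 to young 4. Old 3 and old 4 formed the upper pair and old 1 and old 2 the lower one, and all 4 were above the young mice. The log2 fold change was 1.39 ± 0.31 (SE), from means of 5.44 ± 1.74 CPM in old and 2.04 ± 0.310 CPM in young mice (SD, n = 4 each). Gbp9, likewise recruited to these vacuoles, was at 6.58, 7.48, 9.75 and 11.2 CPM in old 1 to old 4, against 3.88, 6.59, 3.41 and 4.63 CPM in young 1 to young 4. Young 2 reached the level of old 1, so the groups touched at 1 point. The means were 8.75 ± 2.11 CPM in old and 4.63 ± 1.40 CPM in young mice (SD, n = 4 each), with a log2 fold change of 0.91 ± 0.25 (SE).

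Gbp4 differed least. It was at 5.46, 4.61, 3.15 and 5.84 CPM in old 1 to old 4, against 2.79, 3.14, 3.75 and 4.35 CPM in young 1 to young 4. Old 3 lay among the young mice, below young 3 and young 4. Means of 4.76 ± 1.19 CPM in old and 3.51 ± 0.688 CPM in young mice (SD, n = 4 each) gave a log2 fold change of 0.43 ± 0.24 (SE). This value was 0.77 without old 2, old 3 and young 4, the libraries with the most liver transcripts. Only old 1 and old 4, the highest old mice for Gbp4, then remained in the old group.

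Gbp10 was near the limit of detection, with 12, 5, 4 and 10 counts in old 1 to old 4, against 2, 7, 4 and 2 counts in young 1 to young 4. Its groups overlapped, and both old 2 and old 3 stood below young 2. It passed the filter on low counts through 2 old libraries alone, since no young library reached the 1.56 CPM of that filter, whereas each of the other 7 genes reached it in at least 2 young libraries. From 31 counts in old and 15 in young libraries, the ratio of scaled sums was 2.06. The fit gave a log2 fold change of 1.02 ± 0.58 (SE).

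Other family members were barely counted. Gbp8, next to Gbp9, had 1, 3, 6 and 5 counts in old 1 to old 4, against 0, 1, 2 and 2 in young 1 to young 4, a total too low to be tested. Gbp2b, between Gbp3 and Gbp2, had 3 counts in old 1 and old 2 together and 0 elsewhere, and Gbp11 was not analysed here. The atlastins, GTPases of the same superfamily that fuse endoplasmic reticulum membranes, gave log2 fold changes of -0.02 ± 0.09 for Atl1, -0.11 ± 0.09 for Atl2 and 0.19 ± 0.10 for Atl3 (SE), none past the test.

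Summed over the 8 genes, the family reached 50.4, 48.1, 50.3 and 75.75 CPM in old 1 to old 4, against 23.1, 26.7, 27.6 and 31.6 CPM in young 1 to young 4. Old 4 stood apart, while the other 3 old mice were nearly equal. The mean was 56.1 ± 13.1 CPM in old and 27.2 ± 3.48 CPM in young mice (SD, n = 4 each), a ratio of 2.06. That ratio was 2.18 for the genes of chromosome 3 and 1.87 for those of chromosome 5, and the chromosome 3 genes made up 63.9% ± 2.65 of the sum in old and 60.4% ± 6.31 in young mice (SD, n = 4 each), a difference within the spread between mice.

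The makeup of the sum differed most for Gbp4 and Gbp5. Gbp4 supplied 8.59% ± 2.02 of it in old and 12.8% ± 1.03 in young mice, and Gbp5 9.12% ± 1.12 in old and 6.15% ± 1.32 in young mice (SD, n = 4 each). Gbp7 and Gbp3 together were the largest part at both ages, at 22.9% ± 4.36 and 21.5% ± 2.91 in old mice, against 25.3% ± 3.28 and 20.7% ± 3.74 in young mice (SD, n = 4 each). These shares use the values that chose the genes and are a description.

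Per kilobase of exon, which allows levels to be set between genes, Gbp3 was highest at both ages, at 3.69 CPM per kb in old and 1.75 CPM per kb in young mice. Gbp2, Gbp7 and Gbp9 followed at 2.32, 2.31 and 1.69 CPM per kb in old mice, against 0.886, 1.22 and 0.894 CPM per kb in young mice. Gbp6, Gbp5 and Gbp4 formed a lower tier at 0.914, 0.774 and 0.635 CPM per kb in old mice, against 0.342, 0.256 and 0.468 CPM per kb in young mice, and Gbp10 came last at 0.313 in old and 0.153 CPM per kb in young mice. Gbp2 and Gbp7 were nearly level in old mice, and Gbp2 exceeded Gbp7 in 1 of the 4 old libraries. The ranges of neighbours in either order overlapped, except where the upper 4 genes met the lower tier, between Gbp9 and Gbp6 in old mice and between Gbp2 and Gbp4 in young mice. The exon lengths are unions over all annotated transcripts, so genes with long or rarely used exons read low on this scale.

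Between the sexes, 6 of the 8 genes were higher on average in females, the median female minus male log2 fold change being 0.20, and edgeR's quasi-likelihood test (Benjamini-Hochberg) called none of them, against 0.0423% of all genes. Gbp3 averaged 14.3 CPM in old females and 9.76 CPM in old males, and 7.08 CPM in young females and 4.37 CPM in young males (n = 2 each). Its sex difference of 0.60 ± 0.18 (SE) had a 95% interval of 0.26 to 0.95 and an adjusted p = 0.930 in edgeR's test. Gbp5 was similar, with 6.15 CPM in old females and 4.13 CPM in old males, and 2.15 CPM in young females and 1.25 CPM in young males (n = 2 each). Its difference was 0.62 ± 0.25 (SE), with a 95% interval of 0.14 to 1.103 and the same adjusted p. Both intervals treat the estimate as normal, which makes them too narrow for 8 libraries. Unadjusted p-values in edgeR's test were 0.0053 for Gbp3 and 0.0271 for Gbp5, where 676 of all genes had one under 0.05. The other 6 ranged from -0.30 ± 0.56 for Gbp10 to 0.35 ± 0.24 for Gbp4 (SE).

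**Figure D3:**
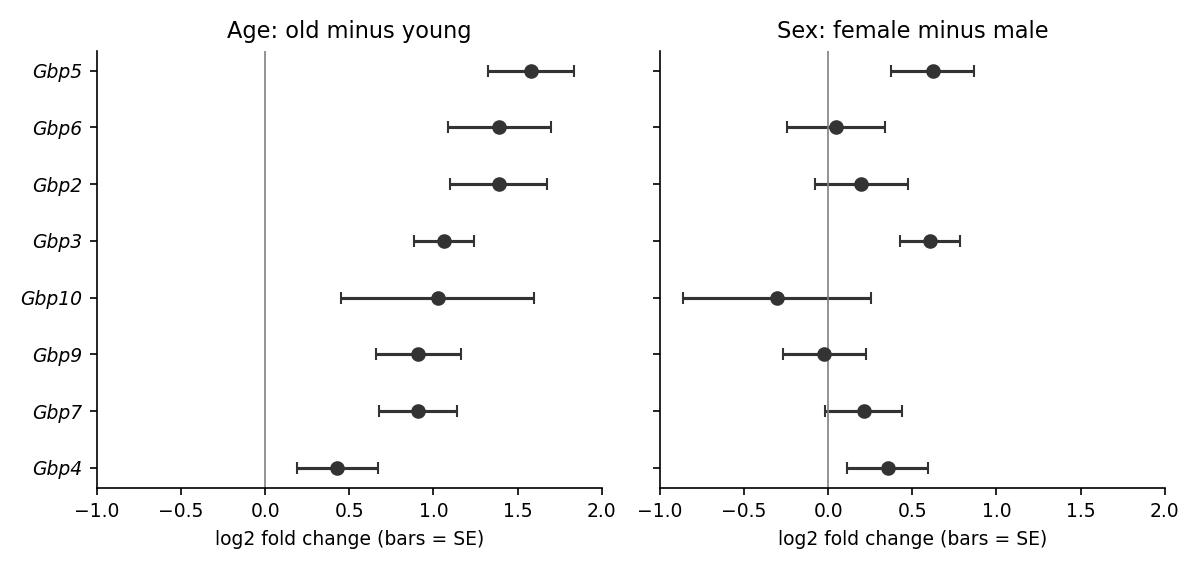
Log2 fold changes (horizontal axis) of the 8 genes for age, old minus young (left), and for sex, female minus male (right), with bars for the SE of the fit over 8 libraries. All age values lie above 0, from 0.43 for Gbp4 to 1.58 for Gbp5, and sex values run from -0.30 for Gbp10 to 0.62 for Gbp5.

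The age difference was not detectably unlike in females and males. The interaction, the female minus the male age difference, ran from -0.64 ± 0.61 for Gbp2 to 0.54 ± 0.52 for Gbp9 (SE), was positive for 4 of 8 genes and had an adjusted p = 0.9999 for each in edgeR's test. That test called 0% of all genes, with 326 at an unadjusted p under 0.05 and 1 called by DESeq2, and 2 mice per age and sex leave it little power.

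Within an age the genes varied together only in part. After subtracting each age group's mean from log2 CPM, 21 of the 28 pairs of genes had a positive Pearson r over the 8 libraries, with a median of 0.32. Gbp3 and Gbp5 were closest, at r = 0.97 (Spearman rho 0.93), followed by Gbp6 and Gbp9 at 0.80 (rho 0.69) and Gbp4 and Gbp7 at 0.75 (rho 0.81). Sex was not subtracted. For Gbp3 and Gbp5 both females exceeded both males within each age, so a shared difference between the sexes is part of their r. Old 4 had the highest value of its group for 7 of the 8 genes, all but Gbp10, and young 4 for 5. Without old 4 the median r was -0.03 and 13 pairs were positive, and without old 4 and young 4 the median was -0.165 and 11 pairs were positive. Those 2 libraries were left out because the family's mean deviation lay farthest from its median there. That choice by itself lowers r, so the fall is a description only. Without both libraries the leading pairs still had r of 0.94 for Gbp3 and Gbp5, 0.75 for Gbp6 and Gbp9, and 0.67 for Gbp4 and Gbp7. These correlations describe 8 libraries that share their depth and scaling and were not tested.

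**Figure D4:**
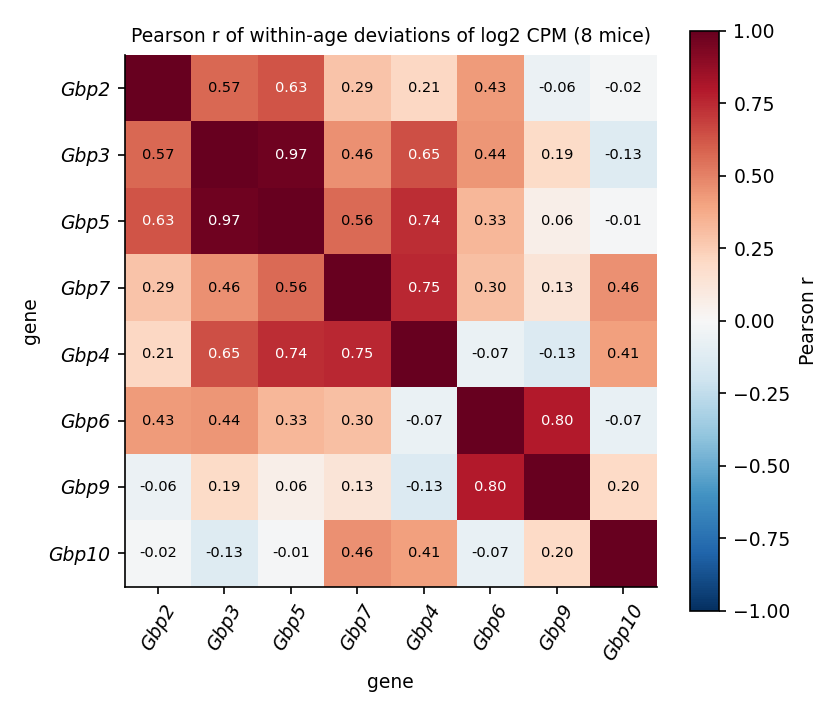
Pearson r between genes (both axes) of log2 CPM after subtraction of each age group's mean, over 8 mice, from -1 (blue) to 1 (red). Gbp3 with Gbp5 (0.97), Gbp6 with Gbp9 (0.80) and Gbp4 with Gbp7 (0.75) are highest, while Gbp10 is near 0 with most others.

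The genes outside the family most like its mean within-age deviation, among 13187 compared over the 8 libraries, were Zfp36 at r = 0.967, Cd163 at 0.966, Tap1 at 0.959, Tmem123 at 0.950, Vps9d1 at 0.943 and Mt1 at 0.933. Zfp36 encodes a factor that speeds decay of AU-rich messenger RNAs, Cd163 the haemoglobin scavenger receptor of macrophages, Tap1 the transporter that loads peptides for MHC class I, and Mt1 a metallothionein. Without old 4 the values were 0.952 for Zfp36, 0.908 for Mt1, 0.828 for Cd163, 0.821 for Tap1, 0.784 for Tmem123 and 0.736 for Vps9d1. Tap1 was at 5.78, 5.33, 4.72 and 10.3 CPM in old 1 to old 4, against 2.33, 2.98, 3.41 and 3.23 CPM in young 1 to young 4. It had a log2 fold change with age of 1.11 ± 0.27 (SE) and the other 5 had 0.04 to 0.46. Among the 6 the smallest adjusted p in edgeR's quasi-likelihood test was that of Tap1, at 0.153.

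Of 87 genes of the surrounding pathway, 81 were listed, 73 were tested, and 2 were called, both higher in old mice. Over all genes tested, 0.0987% were called as higher in old mice and 48.6% had a positive log2 fold change. The lists were written with earlier results of these data known, so counts within them are a description. Both called genes were immunity-related GTPases that control loading of the family onto vacuoles in mouse cells. Irgm1 rose to 27.8 ± 4.34 CPM in old, against 13.7 ± 0.493 CPM in young mice (SD, n = 4 each), and Igtp to 10.1 ± 2.07 CPM in old, against 4.10 ± 0.688 CPM in young mice (SD, n = 4 each). Their Benjamini-Hochberg adjusted p in edgeR's quasi-likelihood test was 0.0283 for Irgm1 and 0.0423 for Igtp. Neither call was kept by limma-voom or without old 1, young 1, young 2, young 3 or young 4, nor for Igtp without old 4, where adjusted p lay between 0.0542 and 0.191. Of the 7 tested genes of that list 6 were positive, with a median of 1.04, and Irgm2 and Iigp1 had log2 fold changes of 1.03 ± 0.20 and 1.45 ± 0.34 (SE).

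Upstream, interferon receptors stayed near the median of all genes, with log2 fold changes of -0.05 ± 0.13 for Ifngr1, 0.06 ± 0.12 for Ifngr2 and 0.02 ± 0.08 for Ifnar1 (SE), while the ligands Ifng and Ifnb1 were not analysed here. Of 13 signalling and transcription factor genes 12 were positive, with a median of 0.22. Irf1 was at 6.65 ± 2.19 CPM in old and 3.69 ± 0.626 CPM in young mice (SD, n = 4 each). The log2 fold changes were 0.84 ± 0.27 for Irf1, 1.84 ± 0.34 for Irf7 and 1.52 ± 0.38 for Nlrc5 (SE). Of 8 genes listed as negative regulators 7 were positive, with a median of 0.37. Among them were Ptpn6 at 0.99 ± 0.29 and Isg15, itself an interferon-induced gene, at 1.47 ± 0.30 (SE, log2). Socs1, an inhibitor of JAK kinases, was at -0.89 ± 0.36 (SE, log2). No gene of these lists passed the test.

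Downstream and in partner systems the lists differed in median. Of 12 inflammasome and pyroptosis genes 11 were positive, with a median of 0.53, led by Naip2, a sensor of bacterial secretion systems, at 2.08 ± 0.36, Naip6 at 2.03 ± 0.58 and Nlrp3 at 1.57 ± 0.50 (SE, log2). All 10 tested genes for TNF, Toll-like receptors and NF-kB were positive, with a median of 0.45, such as Tlr4 at 0.86 ± 0.29, Tlr3 at 0.47 ± 0.16 and Nfkb1 at 0.26 ± 0.10 (SE, log2). The enzymes that prenylate and trim proteins such as Gbp2 and Gbp5 had a median of -0.03 over 6 genes, with Fnta at -0.14 ± 0.07, Icmt at -0.22 ± 0.12 and Zmpste24 at 0.14 ± 0.08 (SE, log2). The Atg8 system had a median of -0.0046 over 10 genes, with Map1lc3a at -0.25 ± 0.11, Gabarapl2 at -0.12 ± 0.08 and Atg3 at 0.16 ± 0.14 (SE, log2). None of these genes was called, and the lists were not compared by a test.

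Markers of cell types that can express the family moved with it in part. The 12 microglia markers summed to 264, 247, 214.8 and 414 CPM in old 1 to old 4, against 151.7, 189, 190.2 and 144 CPM in young 1 to young 4. The groups did not overlap, and each of the 12 was positive with age, the median log2 fold change being 0.64, though none was called. Among them were P2ry12 at 0.39 ± 0.20 and Tmem119 at 0.76 ± 0.24 (SE). The sum of the 8 Gbp genes divided by the microglia sum was 0.191, 0.195, 0.234 and 0.183 in old 1 to old 4, against 0.152, 0.141, 0.145 and 0.219 in young 1 to young 4. These ratios overlapped between the ages through young 4, which had the most family transcripts and the fewest microglia transcripts of the young mice. Their means were 0.201 ± 0.0230 in old and 0.164 ± 0.0367 in young mice (SD, n = 4 each), a ratio of 1.22 where the family's own was 2.06. The value of 1.22 depends on the markers summed. Their log2 fold changes ran from 0.19 ± 0.18 for Siglech to 1.47 ± 0.28 for C1qa (SE). The part of microglia in the family's levels was not tested.

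**Figure D5:**
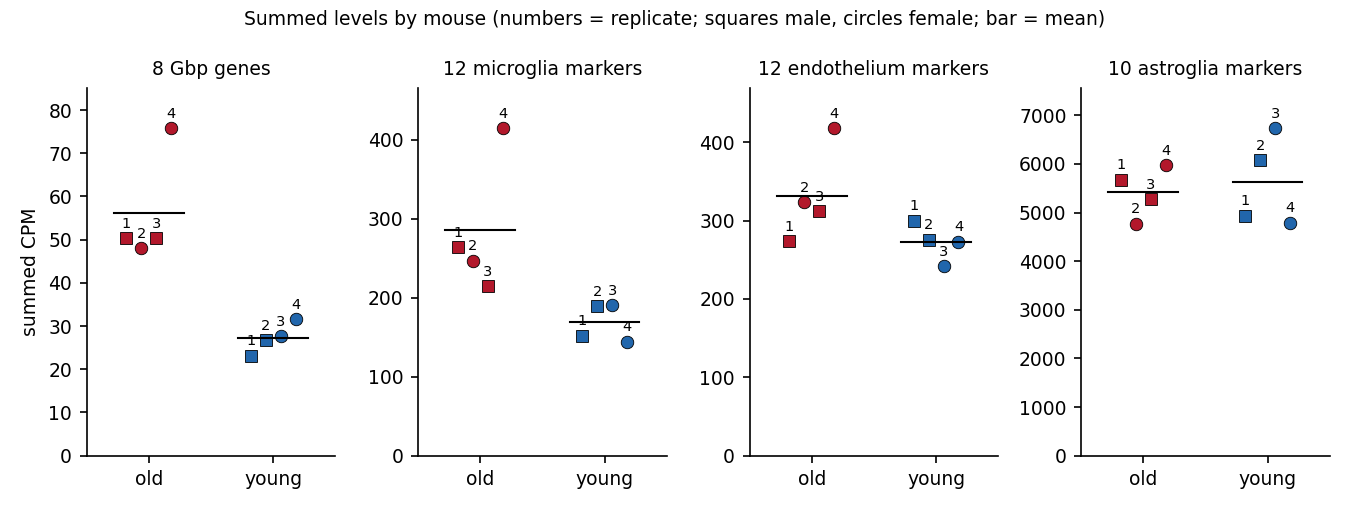
Summed CPM (vertical axes, from 0) of the 8 Gbp genes and of microglia, endothelium and astroglia markers in 4 old mice (red, left) and 4 young mice (blue, right), 1 numbered point per mouse, with squares for males, circles for females and a bar at the mean. Old 4 is the highest old mouse in each panel, at 75.75 CPM for the Gbp genes, and only the Gbp and microglia panels separate the ages.

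The endothelial sum of 12 markers was 274 to 418 CPM in old and 242 to 299.9 CPM in young mice, with 9 of 12 positive, Cldn5 at -0.13 ± 0.21 and Pecam1 at 0.30 ± 0.18 (SE, log2). Family transcripts per endothelial transcript were 0.149 to 0.184 in old and 0.0770 to 0.116 in young mice, without overlap. The old mean of these values over the young one was 1.67. Both rest on the family values known when the genes were chosen, and on the markers summed. Those markers had log2 fold changes from -0.13 ± 0.21 for Cldn5 to 0.89 ± 0.25 for Ly6a (SE). The part of endothelium in the family's levels was not tested. Astroglia markers summed to 4774 to 5974 CPM in old and 4788 to 6730 CPM in young mice, with 2 of 10 positive, Gfap and Aqp4. The fatty acid binding protein gene Fabp7 of that list fell by 0.82 on the log2 scale with SE 0.12 and was called (adjusted p = 0.0283 in edgeR's quasi-likelihood test). Border macrophage markers, among them the mannose receptor Mrc1 at 5.32 ± 2.86 CPM in old and 4.41 ± 1.504 CPM in young mice (SD, n = 4 each), summed to 15.5 to 37.1 CPM in old and 13.75 to 21.8 CPM in young mice, highest in old 4.

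Markers of white blood cells were at low levels in most libraries. Of 14 T and NK cell markers 12 were listed, none had enough counts to be tested, and their sum was 2.83 to 5.61 CPM in old and 2.195 to 4.03 CPM in young mice, with Cd3e at most 0.720 CPM in old and 0.511 CPM in young mice and Cd3d at 0 in 3 old and 2 young mice. B and plasma cell markers summed to 1.01 to 5.05 CPM in old and 0.465 to 1.19 CPM in young mice. Neutrophil and monocyte markers, S100a8 and S100a9 among them, summed to 15.9 CPM in old 1 and 18.9 CPM in old 4, against 0.842 to 3.02 CPM in the other 2 old and the 4 young mice. Erythroid genes were more abundant, summing to 62.6 to 124.5 CPM in old and 45.9 to 79.9 CPM in young mice, and choroid plexus genes to 93.1 to 1476 CPM in old and 68.75 to 686 CPM in young mice. The part of these cells in the family's levels was not tested.

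Liver transcripts were highest in old 2, old 3 and young 4, and the family's median log2 fold change was 1.30 without those libraries and 1.04 with them. Leaving them out kept only old 1 and old 4 as old mice, and old 4 had the highest family sum. Without old 4 alone the median was 0.86. The part of liver transcripts in these differences was not tested. Granule neuron, Purkinje cell and oligodendrocyte markers overlapped between the ages, at 3554 to 4884, 3885 to 5248 and 3956 to 5196 CPM in old mice, against 3969 to 6230, 4389 to 5648 and 3655 to 6034 CPM in young mice. In old 4, where the family stood highest, the granule neuron sum was the lowest of the 8 libraries.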

How the data were processed

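Total RNA of frozen cerebellum was prepared with a ribosomal RNA depletion kit, per the labels' protocols. The authors deposited 1 table of raw counts per gene for each library, with no normalization. Trimmomatic 0.39, STAR 2.7.5b, featureCounts and the builds GRCm38 and mm10 are named in the submitters' processing notes. Their annotation, strand setting and handling of reads with several matches were not given in the sources used here. Names of 24 genes had become dates in 7 of the files, and rows were joined by position.

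Genes with enough counts by filterByExpr (minimum 10, over the 4 age-by-sex cells) were fitted with edgeR 4.0.16 in R 4.3.3, using TMM scaling, robust quasi-likelihood with its newer dispersions and a model with age and sex. The interaction came from a fit of the 4 cells. All genes tested entered the Benjamini-Hochberg adjustment, with a threshold of 0.05. The SE is the size of the log2 fold change divided by the root of the F statistic, and log2 CPM uses a prior count of 2. The fit was tested on simulated data. The genes and lists were chosen with earlier results of these data known, and no list was tested as a set. Genes to be named were the 8 Gbp genes, the rest of the family, the atlastins, called genes and up to 3 further genes of smallest p per pathway list, the first 2 markers per cell type (for several types the sum alone is given) and the 6 most alike genes (mean log2 CPM of at least 1). Irf1 and further microglia markers were added after their values were seen. A few genes under this rule are left unreported. Alternatives were DESeq2 1.42.0, limma-voom (limma 3.58.1), other scaling, filters, dispersions and models, and each library left out. Replicate numbers were not treated as pairs. Exons come from GENCODE M21 and promoters from RefSeq GRCm38.p6.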

Additional observations from a re-analysis of the deposited data

Results flagged for a closer look

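In groups of 4, a value was singled out where its gap to the nearest other mouse was too large a share of the group's range by Dixon's 95% critical value, which chance gives in about 1 of 20 groups. Of 114 sets of 4 values 10 were singled out, a count that is not read against chance, since 4 of the genes were picked for following the family within an age. In old 4 the 8 Gbp genes summed to 75.75 CPM, where the other old mice lay between 48.07 and 50.38 CPM. Old 4 also stood apart for Zfp36 at 6.312 CPM, Cd163 at 12.15 CPM, Vps9d1 at 27.3 CPM and Mt1 at 91.05 CPM, but these 4 were chosen for likeness to a score that is highest in old 4, so the choice fixes this. It stood apart as well for the immunity-related GTPase Irgm2 at 20.83 CPM and for the Toll-like receptors Tlr4 at 14.83 CPM and Tlr3 at 31.09 CPM. Old 4, a female, was the oldest mouse at 102 weeks, and had the highest microglia sum of the 8 libraries. Of the rest, Cd163 was low in young 1 at 3.722 CPM, and the interferon receptor Ifnar1 was high in old 1 at 72.04 CPM. What sets old 4 apart was not tested.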

How the results depend on the processing

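Over up to 17 alternatives per result, no called value and no age value of the 8 genes changed sign. Uncalled sex values of Gbp6 (to -0.56 with the replicate block), Gbp7 (to -0.06), Gbp9 (to 0.17) and Gbp10 (to 0.10), and uncalled age values of Atg3, Atl1, Ifnar1 and Ifngr2, did so under at least 1. Of 130 recomputed age values of the 8 genes, 128 stayed within the spread between mice, and the moved values were Gbp4 at 0.77 and Gbp7 at 1.27 without old 2, old 3 and young 4, while the median ran from 0.86 without old 4 to 1.30. Genes called for age, 17 in all, were 125 by DESeq2, 1 by limma-voom, 26 with older dispersions, 1 with a replicate block, 184 without old 2, old 3 and young 4, and 0 (without young 3 or young 4) to 63 (without old 2) with 1 library left out. Genes called for sex, 6 in all, were 40 without those 3 libraries and 4 (without old 1) to 46 (without old 3) with 1 left out. Interaction calls, 0 in all, were 1 by DESeq2 and 0 to 2 (without old 1 or old 3) with 1 left out. The 2 pathway calls became 8 by DESeq2, 0 by limma-voom, 0 with the replicate block (adjusted p by edgeR 0.191 for Irgm1 and 0.262 for Igtp), 13 without the 3 libraries, and 0 to 6 (without old 2) with 1 left out. The causes were not tested.

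DESeq2 called Gbp2, Gbp3, Gbp5 and Gbp6 for age. Of all 14191 genes it called 91 as higher and 34 as lower in old mice. Because the genes were chosen with their age values known, nothing is read from these calls. The filter of 50 counts in 4 libraries left only Gbp3 and Gbp7 to be tested, and limma-voom and the replicate block called none of the family. No sex difference of the 8 genes was called in any of 130 values. Same-numbered old and young libraries deviated together with r of 0.16, -0.22, -0.05 and -0.25, so the numbers were not taken as pairs. Low counts limit Gbp10 most.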
